A study of Homo sapiens with 2 samples.

Results

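The long noncoding RNAs (lncRNAs) described here are 10 genes whose introns carry small nucleolar RNAs (snoRNAs), namely *GAS5*, *SNHG1*, *SNHG5*, *SNHG6*, *SNHG7*, *SNHG8*, *SNHG12*, *SNHG15*, *SNHG16* and *ZFAS1*. They were taken by gene name from 60612 genes listed, and all 10 were found. Each reached 1 FPKM (fragments per kilobase of gene length, scaled to the depth of the library) in both libraries. L3.6 is an established human pancreatic ductal adenocarcinoma cell line. RNA was sequenced from L3.6 cells with an shRNA against ESE1 (shESE1, 1 library) and from L3.6 cells with a non-targeting shRNA (shCtrl, 1 library). The knockdown was stable, from a lentiviral vector, and pools of puromycin-resistant clones were used. In the labels the control appears as not treated, but by the methods of the study it carried a scramble shRNA. With 1 library in each group, every value is given without a replicate check, no p-value was computed, and intervals cover counting error only.

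A snoRNA host gene is transcribed and spliced, and its snoRNAs are cut out of the excised introns. Box C/D snoRNAs guide ribose methylation of ribosomal RNA, and box H/ACA snoRNAs guide its pseudouridylation. The spliced host RNA that is left, which is what a poly(A) library measures, has short reading frames and is for many hosts degraded by nonsense-mediated decay (NMD) during translation. Many hosts begin with a terminal oligopyrimidine (TOP) tract, a run of C and T bases that they share with ribosomal protein genes.

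Total counts were 60786475 in shESE1 and 56853971 in shCtrl. *ELF3*, the gene of ESE1, was at 10.7 FPKM in shESE1 and 20.4 FPKM in shCtrl, a 1.91-fold lower level with the shRNA that targets it. Mitochondrially encoded genes held 3.79% of all counts in shESE1 and 12.4% in shCtrl. The totals behind FPKM include them, so values without these genes are also given. The epithelial markers *KRT8*, *KRT18*, *KRT19* and *EPCAM* were above 100 FPKM in both libraries, and the leukocyte marker *PTPRC* had 0 counts in both. *CDH1*, which encodes E-cadherin, was at 6.95 FPKM in shESE1 and 16.3 FPKM in shCtrl. The endothelial gene *PECAM1* was at 0.159 FPKM in shESE1 and 0.708 FPKM in shCtrl, from 91 and 371 counts. The fibroblast gene *COL1A1* was at 2.25 FPKM in shESE1 and 4.53 FPKM in shCtrl, and the part of these marker differences in the results was not tested. In bulk RNA, fewer cells that express a gene and less RNA per cell cannot be told apart.

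The sequence around the start of transcription is shown because it carries features that several hosts share and that were not used to choose them. Promoters of 250 bases before to 50 bases after the start were taken from RefSeq (GRCh38.p14), and 8 of the 10 hosts were matched. *SNHG6* and *SNHG15* were not. The 80 bases from 50 before to 30 after the start are printed for the 7 hosts that hold at least 1 of the features, on the strand of the gene. Capitals mark TATAA where it lies within 45 to 16 bases before the start, and the longest unbroken run of at least 5 C or T bases that reaches within 10 bases of the start.
SNHG1, minus strand, chr11:62855856-62855935: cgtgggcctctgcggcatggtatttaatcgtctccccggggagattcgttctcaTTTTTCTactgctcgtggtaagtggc
SNHG5, minus strand, chr6:85678704-85678783: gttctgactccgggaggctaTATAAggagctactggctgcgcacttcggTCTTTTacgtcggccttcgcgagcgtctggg
SNHG7, minus strand, chr9:136728155-136728234: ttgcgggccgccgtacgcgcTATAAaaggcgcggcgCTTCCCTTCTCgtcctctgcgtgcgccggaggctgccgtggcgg
SNHG8, plus strand, chr4:118278712-118278791: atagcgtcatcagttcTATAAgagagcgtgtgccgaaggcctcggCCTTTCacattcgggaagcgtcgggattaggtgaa
SNHG12, minus strand, chr1:28581844-28581923: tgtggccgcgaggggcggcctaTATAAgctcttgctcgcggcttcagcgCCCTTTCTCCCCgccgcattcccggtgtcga
SNHG16, plus strand, chr17:76557714-76557793: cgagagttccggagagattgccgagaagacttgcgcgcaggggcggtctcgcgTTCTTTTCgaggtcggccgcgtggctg
ZFAS1, plus strand, chr20:49278592-49278671: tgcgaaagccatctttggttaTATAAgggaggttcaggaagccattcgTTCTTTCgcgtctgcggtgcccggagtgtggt

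TATAA on the gene's strand was found in this window in 5 of the 8 hosts, namely *SNHG5*, *SNHG7*, *SNHG8*, *SNHG12* and *ZFAS1*, and in the same window of 4.09% of 35116 RefSeq promoters. It began 28 to 34 bases before the start in these 5. A run of at least 5 C or T bases near the start was found in 7 of the 8 hosts and in 48.4% of all promoters. The longest such run was in *SNHG12* (12 bases), followed by *SNHG7* (11 bases). For *GAS5* neither feature was found, and its RefSeq start lies 163 bases from the start of the gene in the deposited table, against 0 to 68 bases for the others except *ZFAS1* (464 bases). ESE1 belongs to the ETS family of transcription factors, which bind a GGAA core. GGAA or its reverse complement TTCC occurred in all 8 promoters of 300 bases, but also in 95.5% of all promoters. The longer CCGGAA, or TTCCGG, which contains that core, occurred in *SNHG8* and *SNHG16*, and in 17.2% of all promoters. These matches describe letters in a window and do not show binding.

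Of the 10 hosts, 9 were lower in shESE1 than in shCtrl, *SNHG7* the most (1.91-fold) and *SNHG6* and *SNHG16* the least, and 1, *SNHG15*, was higher (1.68-fold). As TPM, *SNHG6* and *SNHG16* were slightly higher instead. None reached 2-fold on log2((shESE1 FPKM + 1)/(shCtrl FPKM + 1)), in either direction. A gene was counted as measured where 1 or both libraries reached 1 FPKM. Of the 12520 genes measured, 3.26% were lower by 2-fold or more and 3.14% higher by 2-fold or more, and of the 782 lncRNA genes among them 6.78% and 1.79%. The count of 0 of 10 is near these shares. A log2 change below 0 was seen in 9 of the 10 hosts, in 65.6% of the lncRNA genes measured and in 48.5% of all genes measured. The median log2 change without a pseudocount was −0.43 over the hosts, −0.34 over the lncRNA genes and 0.03 over all genes. By these medians the hosts lay closer to lncRNA genes, which include them, than to all genes. By FPKM in shCtrl, however, 6 of the 10 hosts were in the top 10% of lncRNA genes measured. Of the 6764 genes that reached 5 FPKM in 1 or both libraries, 38.5% were below 0, with a median of 0.15 at a pseudocount of 1. Among them were 7 hosts, 6 of which were below 0, with a median of −0.41. Summed over the 10 hosts, the count was 30413 in shESE1 and 38339 in shCtrl, a log2 change of −0.43 after division by the total counts.

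**Figure D1:**
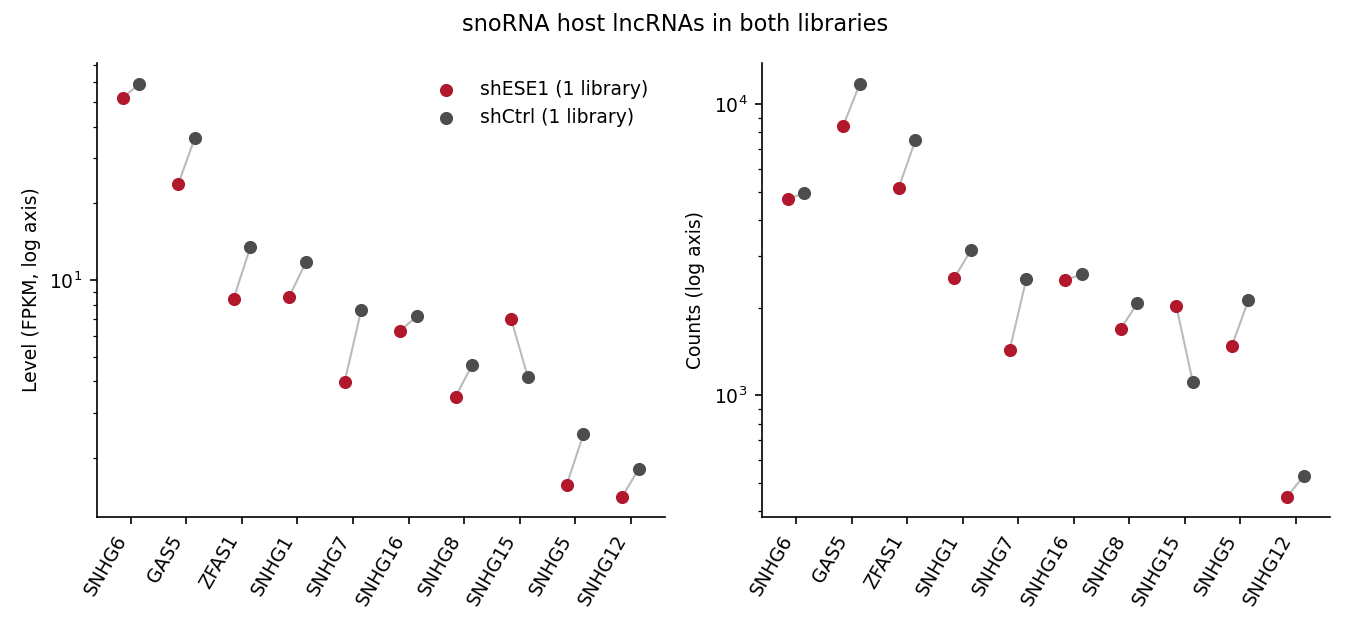
Level in FPKM (left) and counts (right) of each host in the shESE1 library and the shCtrl library, on log axes, with genes ordered by their FPKM in shCtrl. SNHG15 is the 1 host whose shESE1 point lies above its shCtrl point.

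Hosts of box C/D snoRNAs are given first. *GAS5* (ENSG00000234741, chr1:173858559-173868882, minus strand, GRCh38) accumulates in growth-arrested cells and carries a series of box C/D snoRNAs. It was at 23.7 FPKM in shESE1 and 36.1 FPKM in shCtrl, from 8431 and 11767 counts. This was a log2 change of −0.61, with a 95% exact interval of −0.65 to −0.57. With the most counts of the 10, *GAS5* has the narrowest of these intervals.

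*ZFAS1* (ENSG00000177410, chr20:49278178-49295738, plus strand) is the host of the SNORD12 family and starts antisense to the start of *ZNFX1*. It was at 8.45 FPKM in shESE1 and 13.4 FPKM in shCtrl, from 5161 and 7522 counts. Its log2 change was −0.67, with an interval of −0.72 to −0.62. Among all genes measured, 10.6% had a lower log2 change than *ZFAS1* at a pseudocount of 1, and among lncRNA genes 21.1%. *SNHG5* (ENSG00000203875, chr6:85650491-85678754, minus strand), the host of SNORD50A and SNORD50B, was at 1.57 FPKM in shESE1 and 2.47 FPKM in shCtrl. The counts were 1477 and 2121, and the log2 change was −0.66, with an interval of −0.75 to −0.56. The intervals of *ZFAS1*, *SNHG5* and *GAS5* overlap, so their changes are not told apart by counting error alone.

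*SNHG1* (ENSG00000255717, chr11:62851984-62855953, minus strand) carries the cluster from SNORD22 to SNORD31. It was at 8.59 FPKM in shESE1 and 11.7 FPKM in shCtrl, from 2526 and 3151 counts. The log2 change was −0.45 (interval −0.52 to −0.37), which is smaller than that of *GAS5* beyond counting error. *SNHG6* (ENSG00000245910, chr8:66921684-66926398, minus strand), the host of SNORD87, had the highest FPKM of the 10 in both libraries, 51.6 in shESE1 and 58.9 in shCtrl. Its log2 change was only −0.19 (−0.25 to −0.13). *SNHG16* (ENSG00000163597, chr17:76557764-76565348, plus strand), the host of SNORD1A, SNORD1B and SNORD1C, was at 6.32 FPKM in shESE1 and 7.20 FPKM in shCtrl, a log2 change of −0.19 (−0.27 to −0.11). For *SNHG6* and *SNHG16* the direction depends on the scaling, as their log2 changes as TPM (values rescaled to a common sum over genes) were 0.075 and 0.074. All 6 hosts of this class were lower in the deposited FPKM, with a median log2 change of −0.53.

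The 4 hosts that carry box H/ACA snoRNAs, 1 of which also carries a box C/D snoRNA, spread more widely. *SNHG7* (ENSG00000233016, chr9:136721366-136728184, minus strand), the host of SNORA17A and SNORA17B, was at 3.99 FPKM in shESE1 and 7.64 FPKM in shCtrl, from 1434 and 2516 counts. The log2 change of −0.94 (−1.03 to −0.84) was the lowest of the 10 and lay apart from that of *ZFAS1*, the next. *SNHG8* (ENSG00000269893, chr4:118278709-118285316, plus strand), the host of SNORA24, was at 3.48 FPKM in shESE1 and 4.65 FPKM in shCtrl (−0.42, −0.51 to −0.32). *SNHG12* (ENSG00000197989, chr1:28578538-28581878, minus strand), which carries SNORA44, SNORA61, SNORA16A and SNORD99, had the fewest counts, 449 in shESE1 and 530 in shCtrl. Its level was 1.41 FPKM in shESE1 and 1.82 FPKM in shCtrl, and its interval of −0.55 to −0.18 is the widest. It therefore overlaps those of *SNHG1*, *SNHG8*, *SNHG6* and *SNHG16*.

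*SNHG15* (ENSG00000232956, chr7:44983023-44986834, minus strand) carries SNORA9, and its spliced RNA is known to be short-lived. It was at 7.00 FPKM in shESE1 and 4.16 FPKM in shCtrl, from 2026 and 1108 counts. The log2 change was 0.75, with an interval of 0.64 to 0.86, and 89.4% of all genes and 94.1% of lncRNA genes measured had a lower log2 change at a pseudocount of 1. *SNHG15* stood 8th of the 10 by FPKM in shCtrl but 5th in shESE1, while *SNHG7* stood 5th in shCtrl and 7th in shESE1. Of the 9 pairs of hosts that follow each other in order of change, 6 had overlapping intervals. The 3 gaps lay between *SNHG7* and *ZFAS1*, between *GAS5* and *SNHG1*, and between *SNHG16* and *SNHG15*.

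**Figure D2:**
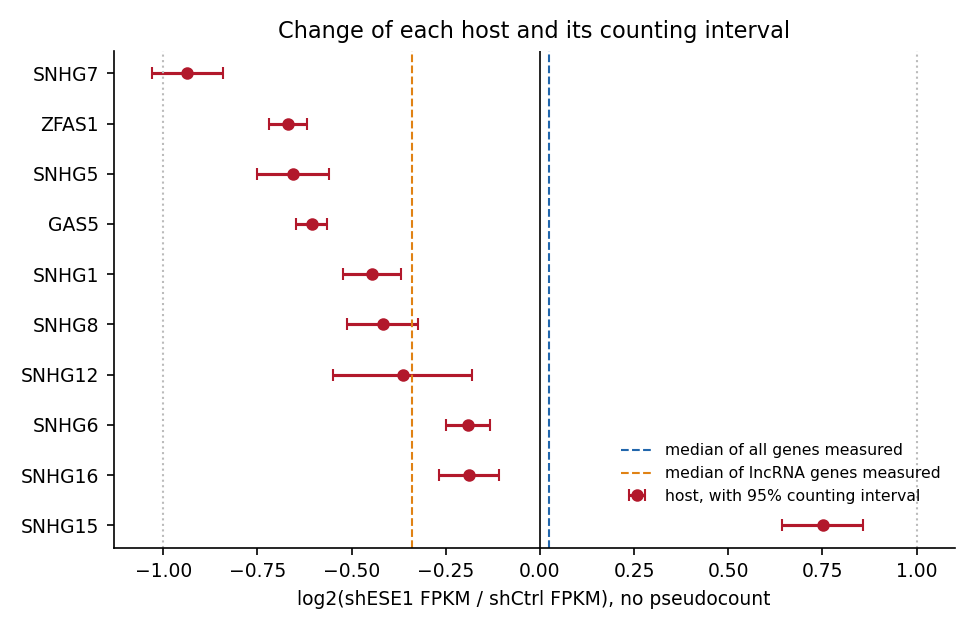
Log2 ratio of shESE1 to shCtrl FPKM without a pseudocount for each host, with 95% exact counting intervals, and dashed lines at the medians of all genes and of lncRNA genes measured and dotted lines at 2-fold. All 10 intervals exclude 0, SNHG7 lies lowest at −0.94, and SNHG15 is alone on the right at 0.75.

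At a lower threshold of 1.5-fold, 3 hosts were lower (*SNHG7*, *ZFAS1* and *GAS5*) and 1 was higher (*SNHG15*). Of all genes measured 11.5% were lower by this much and 12.2% higher, and of lncRNA genes 22.5% and 6.65%. *GAS5*, with a log2 change of −0.59 at a pseudocount of 1, lay just inside this threshold. The pseudocount drew the values towards 0. For *SNHG5* the log2 change was −0.66 without a pseudocount, −0.43 with 1 FPKM added and −0.19 with 5 FPKM added.

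The deposited FPKM and count columns gave nearly the same change but not the same order of levels. For the 10 hosts the log2 ratio of counts divided by library totals was 0.02 to 0.04 above that of FPKM, beside a median of 0.03 over 11547 genes with at least 100 counts in both libraries. By counts, the order in shCtrl began with *GAS5*, *ZFAS1* and *SNHG6*, whereas by FPKM it began with *SNHG6*, *GAS5* and *ZFAS1*. The gene length behind each FPKM value was therefore worked out from counts and FPKM and set beside the summed length of all exons in GENCODE release 29. Of 9703 genes with at least 500 counts in both libraries, 85.7% had a length within 5% of that sum after a common scale factor.

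The hosts deviated from that rule more often than all genes compared, but at a share near that of lncRNA genes. The length was over 1.5 times the exon sum in 3 of the 10 hosts, in 2.52% of all genes compared and in 27.8% of the 162 lncRNA genes among them. For *SNHG8* it was 6618 bases against 923 bases of exon, 7.17 times. For *SNHG5* it was 12723 against 2806 bases (4.53 times), and for *ZFAS1* 8314 against 2243 bases (3.71 times). For *SNHG6*, *SNHG16* and *SNHG12* it was within 2% of the exon sum. The deposited table lists 89 transcripts for *SNHG5* and GENCODE release 29 lists 23, and for *SNHG8* the numbers are 9 and 5. The median spliced transcript of each host is shorter still, 470 bases for *SNHG8* and 641 bases for *SNHG5*, when transcripts with retained introns are left out.

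Levels between hosts thus depend on the length used. In the values that follow, counts were not redone on the exons or transcripts used, so reads outside them raise the values by an unmeasured amount. Per kilobase of exon in GENCODE release 29, *SNHG8* was at 30.2 CPM (counts scaled to the total of the library) in shESE1 and 39.5 in shCtrl, and it moved to 4th of the 10 in shCtrl from 7th by FPKM. On that scale *SNHG6* was at 62.4 in shESE1 and 69.8 in shCtrl, and *ZFAS1* at 37.9 and 59.0. Per kilobase of the median spliced transcript, *GAS5* came first in both libraries, at 232 CPM in shESE1 and 346 in shCtrl. *SNHG12* was the lowest of the 10 by FPKM, by counts and on both of these scales. The lengths worked out for both libraries were nearly the same, differing most in *SNHG5* (12802 bases in shESE1 and 12723 in shCtrl). The change of a host between the libraries therefore depends little on the length, other than through the pseudocount and the minimum of 1 FPKM.

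**Figure D3:**
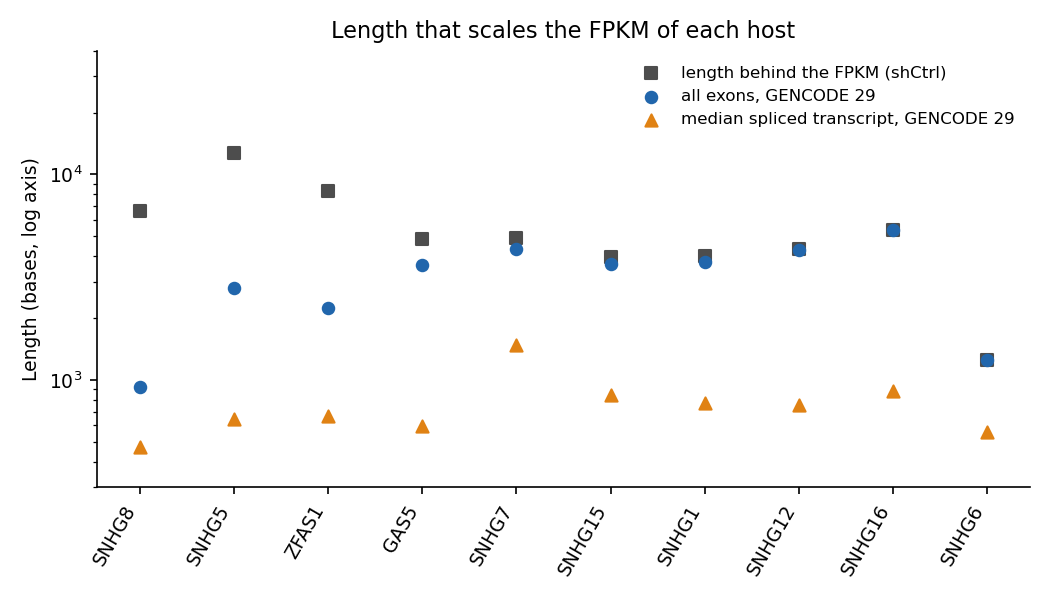
Length in bases, on a log axis, behind the FPKM of each host in shCtrl (squares), over all its exons in GENCODE release 29 (circles) and of its median spliced transcript there (triangles). Squares and circles part most in SNHG8, SNHG5 and ZFAS1 (7.17, 4.53 and 3.71 times) and coincide in SNHG6, SNHG16 and SNHG12.

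The deposited tables also list the snoRNAs. Within the 10 hosts, on the same strand, 26 snoRNA entries were listed for 9 hosts, and none was analysed here for *GAS5*. snoRNAs carry no poly(A) tail, so these libraries were not made to measure them, and reads from an unspliced or intron-retaining host cannot be told apart from reads of the snoRNA. The 26 entries held 226 counts in shESE1 and 241 in shCtrl, and 10 had at least 10 counts in at least 1 library. In 10 entries the count was 1 in both libraries with an FPKM between 1e-06 and 0.10, so a count of 1 in these tables need not be a whole read.

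The bodies of 3 box C/D snoRNAs of *SNHG1* and of the 3 of *ZFAS1* are shown to name what was counted, from GENCODE release 29 on GRCh38 and on the strand of the host. Capitals mark the C box core TGATGA where it lies within the first 25 bases and the D box CTGA where it begins within the last 20.
SNORD22, minus strand, chr11:62852910-62853035: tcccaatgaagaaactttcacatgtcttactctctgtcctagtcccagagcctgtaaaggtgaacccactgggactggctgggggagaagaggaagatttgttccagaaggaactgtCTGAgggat
SNORD26, minus strand, chr11:62855292-62855366: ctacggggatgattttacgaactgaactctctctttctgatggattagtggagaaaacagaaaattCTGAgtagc
SNORD27, minus strand, chr11:62855012-62855083: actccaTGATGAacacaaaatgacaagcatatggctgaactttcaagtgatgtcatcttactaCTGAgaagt
SNORD12, plus strand, chr20:49280683-49280772: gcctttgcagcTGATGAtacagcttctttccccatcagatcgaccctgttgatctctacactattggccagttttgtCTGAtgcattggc
SNORD12B, plus strand, chr20:49280319-49280409: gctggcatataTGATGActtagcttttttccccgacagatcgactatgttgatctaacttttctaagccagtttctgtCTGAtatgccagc
SNORD12C, plus strand, chr20:49278940-49279028: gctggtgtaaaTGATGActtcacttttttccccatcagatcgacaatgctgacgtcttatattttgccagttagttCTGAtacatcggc

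Inside *SNHG1* the entries did not move together. SNORD22 at the position shown had 1 count in shESE1 and 85 in shCtrl, a log2 change of −6.51 with a 95% interval of −11.8 to −3.99. Its FPKM were 0.022 in shESE1 and 9.95 in shCtrl. All log2 changes of snoRNA entries given here compare counts divided by library totals, not FPKM as for the hosts. Their intervals take each count as whole reads, which a count of 1 need not be. SNORD26 had 1 count in shESE1 and 20 in shCtrl. SNORD27 went the other way, with 31 counts in shESE1 and 1 in shCtrl, and SNORD30 had 26 in shESE1 and 22 in shCtrl. Summed over the 7 entries of *SNHG1*, the counts were 62 in shESE1 and 131 in shCtrl, beside 2526 and 3151 counts listed for the host.

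Inside *ZFAS1* the 3 SNORD12 entries were each higher in shESE1, whereas the host was lower. SNORD12 had 15 counts in shESE1 and 1 in shCtrl, SNORD12B 8 and 2, and SNORD12C 8 and 0. The 95% interval of the log2 change was 1.11 to 9.21 for SNORD12, began at 0.67 for SNORD12C and spanned 0 for SNORD12B (−0.42 to 5.18). Together the 3 entries had 31 counts in shESE1 and 3 in shCtrl, a log2 change of 3.27 with an interval of 1.59 to 5.63, next to 5161 and 7522 counts of the host. All 994 snoRNA entries of the tables held 3056 counts in shESE1 and 2302 in shCtrl, so snoRNA entries as a whole also had more counts in shESE1.

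Other hosts gave few snoRNA counts. SNORA24 in *SNHG8* had 47 counts in shESE1 and 15 in shCtrl, a log2 change of 1.55 (0.69 to 2.50), beside a host that was lower. SNORD87 in *SNHG6* had 14 counts in shESE1 and 29 in shCtrl (−1.15, −2.18 to −0.18). In *SNHG7*, SNORA17B had 7 counts in shESE1 and 17 in shCtrl, and a snoRNA entry at the position of SNORA17A, listed as *AL355987*, had 35 and 25. In *SNHG12*, SNORA44 had 15 counts in shESE1 and 8 in shCtrl. SNORA9 of *SNHG15* had 1 count in each library, too few to set beside the level of that host.

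Several hosts lie head to head with a protein-coding gene or overlap one on the other strand. Of 15 genes that overlap a host or start within 1 kb of its start, 6 were measured, and 5 of these had a log2 change below 0. Among all genes measured, 48.5% were below 0. *SLC3A2*, which encodes the heavy chain of an amino acid transporter, starts 149 bases from *SNHG1*. It was at 57.4 FPKM in shESE1 and 69.5 FPKM in shCtrl, a log2 change of −0.28 beside −0.45 for the host. *ZNFX1*, a helicase gene that starts 248 bases from *ZFAS1*, was at 5.82 FPKM in shESE1 and 6.22 FPKM in shCtrl (−0.10, against −0.67 for *ZFAS1*). Their intervals do not overlap with those of the hosts, which were lower in each pair.

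Overlap limits what some host counts mean. The libraries mark the strand, but whether the counting used it is not given in the sources used here. *SNHG16* shares 38.1% of its 100-base words with a protein-coding gene of the opposite strand, *AC015802*, and is uncertain for that reason. *AC015802* was at 4.65 FPKM in shESE1 and 6.76 FPKM in shCtrl, a log2 change of −0.54, from 1929 and 2573 counts beside 2489 and 2602 of *SNHG16*. *SNHG6* shares 19.3% of its words, mainly with *MCMDC2*, which had 52 counts in shESE1 and 74 in shCtrl, beside 4727 and 4948 of the host. *SNHG7* shares 16.4% and overlaps *DIPK1B*, which was at 4.23 FPKM in shESE1 and 5.27 FPKM in shCtrl (−0.32). *ZFAS1* shares 15.8%. *GAS5* and *SNHG5* share none. These words come from transcripts in GENCODE release 29, not from the deposited gene models. In the deposited table the span of *GAS5* overlaps *GAS5-AS1* over 1469 bases and *ZBTB37* over 801 bases, both on the other strand. *ZBTB37* had 405 counts in shESE1 and 704 in shCtrl. The span of *SNHG5* overlaps *PKMP3* on the same strand over 715 bases, with 8 counts in each library. Of the remaining neighbours, *PRSS12* on the other strand overlaps the span of *SNHG8* over 5279 bases. It had 1060 counts in shESE1 and 1072 in shCtrl (−0.14), beside 1693 and 2074 of *SNHG8*. The length behind the FPKM of *SNHG8* was 6618 bases, and its counts are uncertain too. How many of them come from this overlap was not tested. *TRNAU1AP* next to *SNHG12* had a log2 change of 0.06.

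Other lncRNA hosts of snoRNAs lay on both sides of 0. Of 21 listed, 13 were measured, 7 with a log2 change below 0 and 6 above, and the median was −0.11. *EPB41L4A-AS1* was the 1 that was lower by more than 2-fold, at 2.35 FPKM in shESE1 and 5.83 FPKM in shCtrl. *SNHG3* (−0.68) and *SNHG32* (−0.57) were lower as well. *SNHG30* was higher, at 8.16 FPKM in shESE1 and 4.70 FPKM in shCtrl (0.80). So was *DANCR*, at 4.07 FPKM in shESE1 and 2.48 FPKM in shCtrl (0.71). Both lay near the 0.75 of *SNHG15*. Over all 23 measured lncRNA hosts, these 10 and the other 13, 16 had a log2 change below 0 (69.6%, beside 65.6% of lncRNA genes). Protein-coding genes with a snoRNA inside them, 194 of 263 measured, had a median of 0.04. Of these 194, 43.3% were below 0, beside 48.5% of all genes measured. By 2-fold or more, 2 were lower and 4 higher, beside 3.26% and 3.14% of all genes measured.

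Genes of the proteins that form or release snoRNA particles lay mostly above 0. All 8 core proteins of snoRNA particles had a log2 change above 0, with a median of 0.56 and none at 2-fold. Of all genes measured, 48.5% had a log2 change below 0. Of the 6764 genes that reached 5 FPKM in 1 or both libraries, as these 8 did, 38.5% were below 0. The median of those 6764 genes was 0.15 at a pseudocount of 1. *NOP56* of the box C/D particle was at 42.9 FPKM in shESE1 and 22.9 FPKM in shCtrl (0.90), and *FBL*, which encodes the methyltransferase fibrillarin, at 148 and 101 FPKM (0.56). Their partners *SNU13* and *NOP58* had log2 changes of 0.30 and 0.06. In the box H/ACA particle, *NOP10* (0.75), *NHP2* (0.64), *GAR1* (0.55) and *DKC1* (0.38), the gene of the pseudouridine synthase dyskerin, were all higher. Of 9 assembly and release factors 8 were above 0, among them the AAA+ ATPase genes *RUVBL1* (0.97) and *RUVBL2* (0.61), the lariat debranching enzyme gene *DBR1* (0.76) and *NAF1* (0.49), an assembly factor of box H/ACA particles.

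Genes of NMD lay on both sides. Of 10 factors, 5 had a log2 change below 0 and the median was −0.01, beside 48.5% and 0.03 over all genes measured. *SMG1*, the kinase of UPF1, was at 1.64 FPKM in shESE1 and 3.36 FPKM in shCtrl (−1.04), and *UPF2* at 4.74 and 7.05 FPKM (−0.57). *SMG8* (0.59) and *SMG5* (0.55) were higher, whereas *UPF1* (−0.02), *SMG6* (0.01), *UPF3A* (−0.16), *UPF3B* (−0.29) and *SMG9* (0.24) moved less. Of 7 transcripts used as markers of NMD, 4 were above 0 and 3 below, with a median of 0.14. *UPP1* was at 0.85 and the other 3 above 0 lay between 0.14 and 0.21, while *ATF4* (−0.80), *NAT9* (−0.49) and *GADD45A* (−0.36) were lower. *SMG1* has near-identical copies elsewhere in the genome and its counts are uncertain.

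Other genes with a TOP tract were split as well. Of 13 translation factors of this class, 10 had a log2 change below 0, with a median of −0.22 and none at 2-fold. Of the genes that reached 5 FPKM in 1 or both libraries, 38.5% were below 0, with a median of 0.15 at a pseudocount of 1. *PABPC1*, the poly(A)-binding protein gene, was at 164 FPKM in shESE1 and 314 FPKM in shCtrl (−0.94). *EIF4B* (−0.53), *EEF2* (−0.45) and *EIF3E* (−0.45) were lower too. Of 82 measured ribosomal protein genes 16 (19.5%) had a log2 change below 0, and their median was 0.22. Among those with the largest change, *RPL39L* (1.13), the 1 past 2-fold, *RPL26L1* (0.79) and *RPL15* (0.72) were higher. Ribosomal protein genes have many processed copies in the genome, which makes single values uncertain. By their medians the hosts and the ribosomal protein genes lay on opposite sides of 0.

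**Figure D4:**
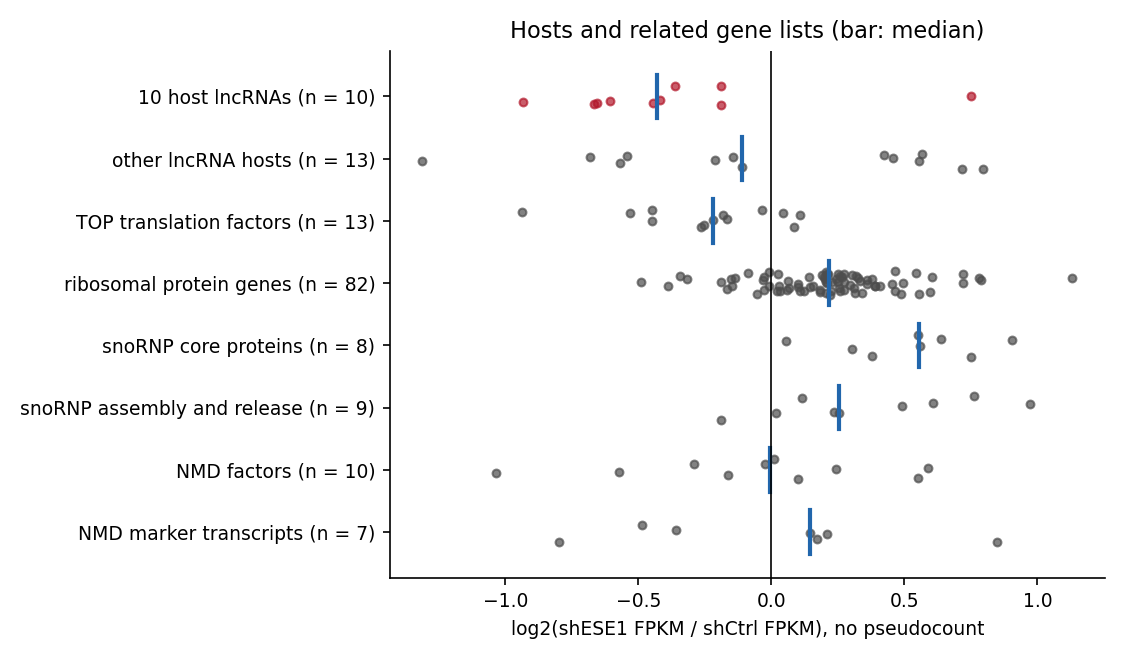
Log2 ratio of shESE1 to shCtrl FPKM without a pseudocount for each measured gene of the 10 hosts and of 7 related lists, with bars at the medians. The hosts have the lowest median (−0.43) and the core proteins of snoRNA particles the highest (0.56).

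The median log2 change over the hosts at a pseudocount of 1 was −0.37 in the deposited FPKM, −0.42 after median ratio scaling, −0.49 when the totals held no mitochondrial genes, −0.35 as CPM with TMM factors and −0.16 as TPM. The median of all genes moved in the same direction, to −0.03, −0.10, 0.02 and 0.20 in these 4 scalings. Single hosts moved in both directions as CPM with TMM factors, *SNHG5* to −0.56 and *SNHG15* to 0.79. As CPM without TMM factors they were already at −0.60 and 0.74. On both CPM scales the pseudocount of 1 is added to CPM and not to FPKM. The difference between both medians was −0.39 in the deposited FPKM and −0.36 as TPM. Over all settings run it lay between −0.56 (minimum of 5 FPKM) and −0.20 (pseudocount of 5 FPKM). Of the 10 hosts 8 kept their sign under every alternative run, and the exceptions were *SNHG6* and *SNHG16* as TPM. *SNHG15* was higher throughout, from 0.39 to 0.96.

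**Figure D5:**
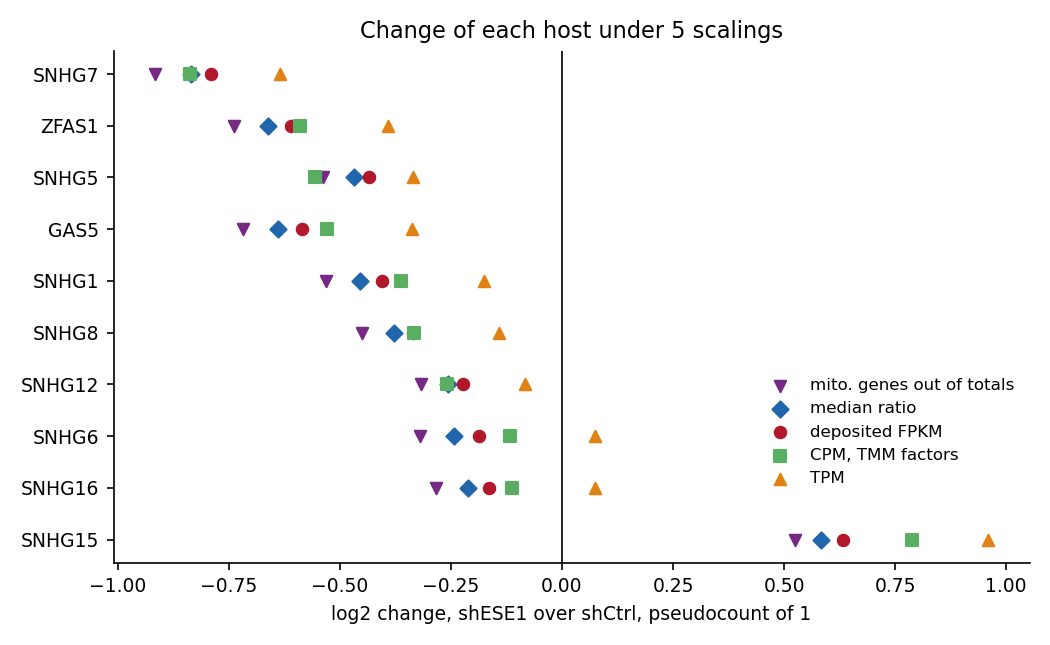
Log2 change of each host at a pseudocount of 1 under 5 scalings of the same 2 libraries. The TPM points lie to the right in every host and cross 0 for SNHG6 and SNHG16 (0.075 and 0.074), and SNHG15 is above 0 in all 5.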

How the data were processed

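Poly(A) RNA of L3.6-shESE1 and L3.6-shCtrl cells (1 library each) was sequenced as strand-marked, paired-end libraries. Gene-level FPKM values were deposited by the authors with 0.0001 as a placeholder for no reads, which was set to 0 here. Whole-number counts were deposited without normalization. fastp, HISAT2, StringTie, GRCh38 and mm10 appear in the submitters' processing notes. Their roles and versions and the counting tool were not given in the sources used here. If both ends of a fragment were counted, the intervals are too narrow.

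Change was measured, after adding a pseudocount of 1 FPKM, as the log2 ratio of shESE1 to shCtrl, for genes that reached 1 FPKM in 1 or both libraries. TPM were FPKM divided by their sum. Log2 changes of snoRNA entries were ratios of counts divided by total counts. Log2 ratios printed with a 95% Clopper-Pearson interval of counts have no pseudocount, and neither have those of single genes and list medians unless a pseudocount is named, whereas 2-fold and 1.5-fold counts use the pseudocount of 1. Members and lists were chosen with earlier results of these data known. The named genes were all members, neighbours and snoRNAs past the minimum, up to 4 genes with the largest change in each list, all snoRNP core proteins and all NMD factors. *MCMDC2*, *ZBTB37*, *GAS5-AS1*, *PKMP3*, *DANCR*, the libraries' marker genes and snoRNA entries under 10 counts were named after their values were seen. Some genes that this rule takes are not reported here. The length behind FPKM was the count divided by FPKM and total counts, scaled by the median ratio to GENCODE release 29 exons. Shared sequence was counted in 100-base words of GENCODE release 29 transcripts, taken every 10 bases, on both strands. The calculation was tested on simulated data. Python 3.11.15, numpy 2.4.6, scipy 1.17.1, pandas 2.3.3, matplotlib 3.10.9 and edgeR 4.0.16 (TMM factors only) were used.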

Additional observations from a re-analysis of the deposited data

How the results depend on the processing

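With 1 library per group no replicate could be left out, and no paired fit could be made. The count of hosts at least 2-fold lower or higher was 0 and 0 under all 10 alternatives of pseudocount, filter and scaling, 1 of which (no pseudocount) was chosen after seeing the data. With a threshold of 1.5-fold it was 3 lower and 1 higher. The median log2 change of the hosts, −0.37, was −0.19 with a pseudocount of 5 FPKM, −0.16 as TPM and −0.49 without mitochondrial genes in the totals. By construction, a larger pseudocount draws genes at low FPKM towards 0. *SNHG6* and *SNHG16* changed sign as TPM, with a log2 change of 0.075 for *SNHG6* and 0.074 for *SNHG16*, and no other host changed sign under any of the 10. With a minimum of 5 FPKM, 7 hosts were left. Over all genes, 408 were lower by 2-fold or more and 393 higher in the deposited FPKM, 1034 and 668 without a pseudocount, 958 and 644 with 0.1 FPKM, 110 and 142 with 5 FPKM, 945 and 686 as CPM with TMM factors, 1021 and 622 as CPM, 568 and 293 without mitochondrial genes, and 873 and 1432 as TPM. snoRNA entries, with at most 85 counts, are limited by depth. No paired analysis was possible because each group has 1 library.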
